A study of Mus musculus with 36 samples.

Results

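The 250 kb windows of mouse chromosome X that hold the genes Tab3 and Gk, Klhl15 and Apoo, Msn, and Eda were examined for gain of H2AK119ub1, a single ubiquitin on a lysine near the tail end of histone H2A, after Xist was switched on. A gene was assigned to the window that holds its midpoint, which gave 4 windows for the 6 genes out of 354 windows with usable signal on both alleles. They were selected on the change of the allelic ratio after 24 h of induction in WT and SPOC mutant cells, which was large there. The 24 h values of those 2 genotypes are therefore given as a description with no test. On each side 2 flanking windows were read as well, 16 in all.

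Native chromatin immunoprecipitation (ChIP) of H2AK119ub1 was sequenced from female mouse embryonic stem cells, hybrids of the 129S and Cast strains. In all groups a TetOn promoter stands in place of the promoter of Xist on the 129S allele, and 1 µg/mL doxycycline was added for 3 h or 24 h, or left out. The first genotype had a deletion of the RNA recognition motifs (RRM) of Spen, with clones C3 and C4 in the 3 h series and C3 and D4 in the 24 h series. Clones C3 and D4 are labelled as making a spurious truncated product and clone C4 as a full knockout. The second genotype had a mutated SPOC domain of Spen, with clones C11 and H1 in the 3 h series and E7 and H1 in the 24 h series. The reference was WT, the parental line, with 1 library per state in the 3 h series and 3 in the 24 h series. Each clone or WT replicate gave 1 induced and 1 uninduced library, 24 ChIP libraries in all, and 12 input libraries of unprecipitated DNA covered the 24 h series apart from WT replicate 3. Clones C3 and H1 are in both series. The 3 h libraries were handled together on 1 day, whereas the Spen lines, the SPOC lines and each WT replicate of the 24 h series were handled on separate occasions, so genotype and occasion cannot be told apart at 24 h. The study used the mark as a stand-in for where Xist RNA lies on the chromosome, and asked whether Spen and its SPOC domain shape that distribution.

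The titles and the file names of the 4 SPOC ChIP libraries of the 24 h series disagree. The libraries of clones E7 and H1 that are titled as uninduced have file names that mark them as induced, and the reverse. States are taken here from the file names. With the states as titled, each 24 h SPOC change below has the opposite sign and the same size, and the inputs show no such disagreement.

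Xist is a long non-coding RNA that coats the X chromosome it is made from and silences it. It brings the Polycomb repressive complex PRC1, whose RING1 subunits place H2AK119ub1, and in embryonic stem cells this mark appears early after induction. Spen binds Xist RNA through its RNA recognition motifs, and its SPOC domain contacts corepressors that switch genes off. Of the genes in these windows, Tab3 is an adaptor of the TAK1 kinase on the way to NF-kB, and Eda (ectodysplasin A) is a TNF family ligand needed for hair, teeth and glands. Msn encodes moesin, which links actin filaments to the plasma membrane. Gk is glycerol kinase, Apoo is a subunit of the MICOS complex that shapes mitochondrial cristae, and Klhl15 is a substrate adaptor of a cullin 3 ubiquitin ligase.

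The genes differ in length, so a gene's window does not always hold its promoter. The Tab3 and Gk window is chrX:85500001-85750000 (mm10), the Klhl15 and Apoo window is chrX:94250001-94500000 and also holds Fam90a1b, the Msn window is chrX:96000001-96250000 and the Eda window is chrX:100000001-100250000. Tab3, Apoo and Msn start inside their window. Gk, on the minus strand, starts in the next window to the right, Klhl15 starts in the window to the left that holds Zfx and Eif2s3x, and Eda, which is 425.2 kb long, starts in the window to the left that holds Tmem28. The promoter just upstream of the start is shown for 1 gene of each window, from RefSeq on GRCm38.p6, the assembly of mm10, with every CG in capitals because CG-rich promoters are known binding ground of Polycomb complexes. Only bases outside the annotated gene are printed.
Gk, chrX:85776820-85777069, minus strand: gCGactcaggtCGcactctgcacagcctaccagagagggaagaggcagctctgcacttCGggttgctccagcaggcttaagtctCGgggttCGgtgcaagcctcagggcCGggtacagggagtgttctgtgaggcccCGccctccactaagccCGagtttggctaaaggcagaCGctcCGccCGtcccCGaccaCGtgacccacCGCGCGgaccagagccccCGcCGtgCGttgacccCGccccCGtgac
Apoo, chrX:94366860-94367009, plus strand: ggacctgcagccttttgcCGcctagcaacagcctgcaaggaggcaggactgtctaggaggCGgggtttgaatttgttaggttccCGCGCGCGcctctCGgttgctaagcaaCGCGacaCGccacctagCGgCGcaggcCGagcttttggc
Msn, chrX:96095795-96096044, plus strand: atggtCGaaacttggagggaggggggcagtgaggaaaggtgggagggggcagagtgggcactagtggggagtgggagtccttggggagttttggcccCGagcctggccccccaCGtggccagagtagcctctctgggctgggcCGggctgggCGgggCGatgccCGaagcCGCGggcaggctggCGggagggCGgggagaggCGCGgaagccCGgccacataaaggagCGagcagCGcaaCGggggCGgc
Eda, chrX:99975356-99975605, plus strand: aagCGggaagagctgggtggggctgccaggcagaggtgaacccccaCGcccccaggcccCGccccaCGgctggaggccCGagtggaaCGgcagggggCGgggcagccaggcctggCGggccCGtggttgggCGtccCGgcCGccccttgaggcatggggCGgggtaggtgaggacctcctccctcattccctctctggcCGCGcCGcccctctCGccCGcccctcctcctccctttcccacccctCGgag

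In the 250 bases before each start in the promoter table there were 24 CG pairs at Tab3, 21 at Gk, 24 at Klhl15, 20 or 23 at the alternative starts of Apoo, 18 at Msn and 19 at Eda. A CG reads the same on both strands. These bases lie partly inside the annotated gene at Tab3 (82 bases with 7 CG outside) and Apoo (150 with 13, or 106 with 12, outside) and wholly inside it at Klhl15, so there they are not bases upstream of the whole gene. Of all 32851 mouse promoters in the table, 16.3% held at least as many as Gk, 19.7% as many as Eda and 21.7% as many as Msn, the lowest of the 6 genes. Among 1223 promoters of chromosome X these shares were 7.8%, 10.1% and 11.6%. All 6 promoters therefore lie in the CG-rich part of the range, but a window of 250 kb does not resolve signal at a promoter.

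The measure is the log2 ratio of the signal on genome 2 over that on genome 1, where the files name the alleles only by these numbers. Both alleles come from 1 library, and its scaling drops out of the ratio. Summed over chromosome X the signal ran from 116006 to 277241 per ChIP library and from 177468 to 189684 per input, and the number of reads behind it is unknown. Inputs held 50.8% to 51.5% of allelic signal on genome 2. The 24 h SPOC ChIP libraries induced by file name held 65.3% and 64.9%, and those uninduced by file name 51.5% and 51.2%. The other ChIP libraries held 48.7% to 54.9% when uninduced and 58.7% to 73.8% when induced. "Level" below means the ratio as it stands, and "centred" means the ratio after subtraction of the median window of the same library, so a centred change says how a window moved relative to the chromosome. Separate cultures are not stated for the WT replicates beyond their occasions, and the clones are the replicates of the mutants.

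**Figure D1:**
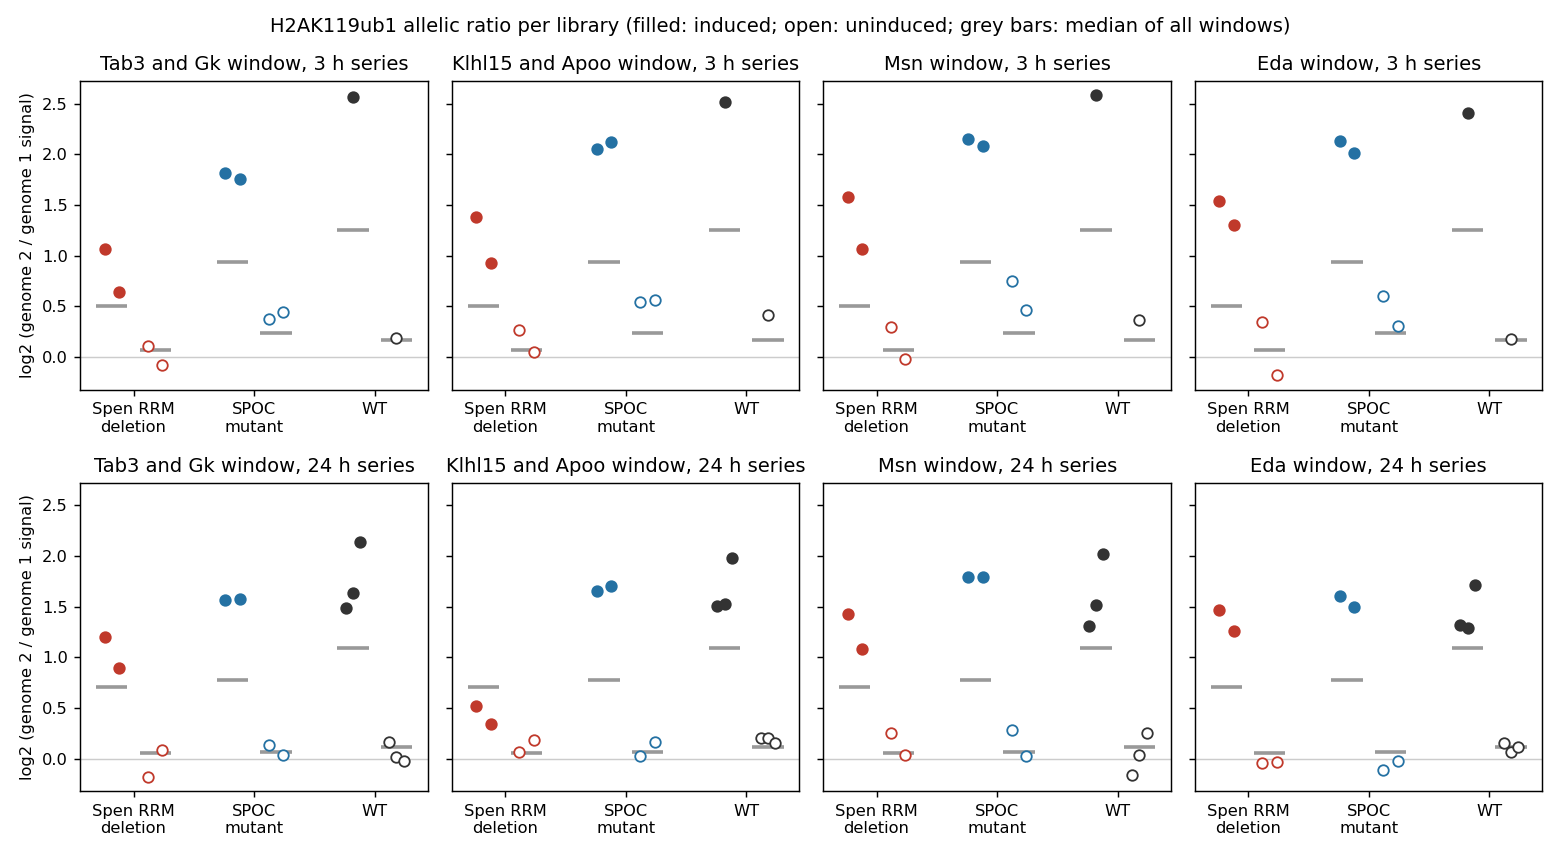
Log2 ratio of genome 2 over genome 1 signal (vertical axis) in each ChIP library for the 4 windows, with the 3 h series above and the 24 h series below, induced libraries as filled and uninduced ones as open points, and the mean over libraries of the median window as grey bars. Induced points stand above the grey bars, by little for Spen clones C4 at 3 h (0.64) and D4 at 24 h (0.89) at Tab3 and Gk, and below them in the Klhl15 and Apoo window of the Spen clones at 24 h (0.52 and 0.34). SPOC states at 24 h follow the file names.

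In the Tab3 and Gk window, the ratio at 3 h was 1.07 in induced Spen clone C3 and 0.64 in C4, against 0.10 and -0.08 uninduced. It was 1.82 in induced SPOC clone C11 and 1.75 in H1, against 0.38 and 0.44 uninduced. The WT library stood at 2.57 induced and at 0.19 uninduced. Induced libraries lay above uninduced ones in each genotype, lowest in Spen, higher in SPOC and highest in WT. The median window of the libraries had the same order. It stood at 0.66 and 0.35 in induced Spen, 1.02 and 0.87 in induced SPOC and 1.26 in induced WT libraries. In uninduced libraries it lay between -0.10 and 0.29. At 24 h the induced Spen clones C3 and D4 had 1.21 and 0.89, against -0.18 and 0.08 uninduced. The SPOC clones E7 and H1 had 1.56 and 1.58 induced and 0.14 and 0.03 uninduced. The 3 WT replicates had 1.49, 1.64 and 2.14 induced and 0.16, 0.02 and -0.03 uninduced. Induced SPOC libraries thus fell within the WT range at 24 h and both Spen clones below it.

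In the Klhl15 and Apoo window, the ratio at 3 h was 1.38 and 0.92 in induced Spen clones C3 and C4, against 0.27 and 0.05 uninduced. In SPOC clones C11 and H1 it was 2.05 and 2.12 induced and 0.54 and 0.56 uninduced, and in WT it was 2.52 induced and 0.41 uninduced. This order, with Spen lowest, was that of the Tab3 and Gk window. At 24 h the induced Spen clones C3 and D4 had 0.52 and 0.34, against 0.07 and 0.18 uninduced. The SPOC clones E7 and H1 had 1.66 and 1.70 induced and 0.03 and 0.16 uninduced. The WT replicates had 1.503, 1.53 and 1.98 induced and 0.20, 0.20 and 0.16 uninduced. The gap between the Spen clones and the other genotypes was wider here at 24 h than in the other 3 windows.

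In the Msn window, the ratio at 3 h was 1.58 and 1.07 in induced Spen clones C3 and C4, against 0.29 and -0.02 uninduced. In SPOC clones C11 and H1 it was 2.15 and 2.08 induced and 0.75 and 0.47 uninduced, and in WT it was 2.58 induced and 0.36 uninduced. The uninduced SPOC libraries were the highest uninduced ones of the 3 h series here, as they were in the Tab3 and Gk window and in the Klhl15 and Apoo window. At 24 h the induced Spen clones C3 and D4 had 1.43 and 1.08, against 0.25 and 0.04 uninduced. The SPOC clones E7 and H1 had 1.79 and 1.80 induced and 0.28 and 0.03 uninduced. The WT replicates had 1.31, 1.52 and 2.02 induced and -0.16, 0.04 and 0.25 uninduced. Here Spen clone C3 overlapped the WT range at 24 h.

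In the Eda window, the ratio at 3 h was 1.54 and 1.31 in induced Spen clones C3 and C4, against 0.35 and -0.18 uninduced. In SPOC clones C11 and H1 it was 2.13 and 2.01 induced and 0.60 and 0.31 uninduced, and in WT it was 2.41 induced and 0.18 uninduced. At 24 h the induced Spen clones C3 and D4 had 1.46 and 1.26, against -0.05 and -0.03 uninduced. The SPOC clones E7 and H1 had 1.61 and 1.498 induced and -0.11 and -0.02 uninduced. The WT replicates had 1.32, 1.29 and 1.71 induced and 0.15, 0.06 and 0.11 uninduced. Of the 4 windows this was the one where the genotypes lay closest together at 24 h, with Spen clone C3 inside the WT range and D4 just below it.

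The gain sat on genome 2. In the Tab3 and Gk window at 3 h, genome 2 signal was 106 and 97.3 in induced Spen clones C3 and C4, against 58.0 and 46.8 uninduced. In WT the same window had 337 on genome 2 induced and 73.1 uninduced, while genome 1 signal was 56.6 induced and 64.0 uninduced. In the Klhl15 and Apoo window at 24 h, genome 2 signal was 99.0 and 93.8 in induced Spen clones C3 and D4, against 78.7 and 79.3 uninduced. In WT the same window had 229, 244 and 309 on genome 2 induced and 82.9, 83.3 and 81.5 uninduced. Across the 4 windows and both times the mean log2 change of genome 2 lay between 0.29 and 1.49 in the Spen clones, between 1.37 and 1.79 in the SPOC clones and between 1.55 and 2.27 in WT. The mean log2 change of genome 1 lay between -0.18 and 0.22 in all genotypes. Unlike the ratio, single-allele values depend on how the authors scaled each library.

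**Figure D2:**
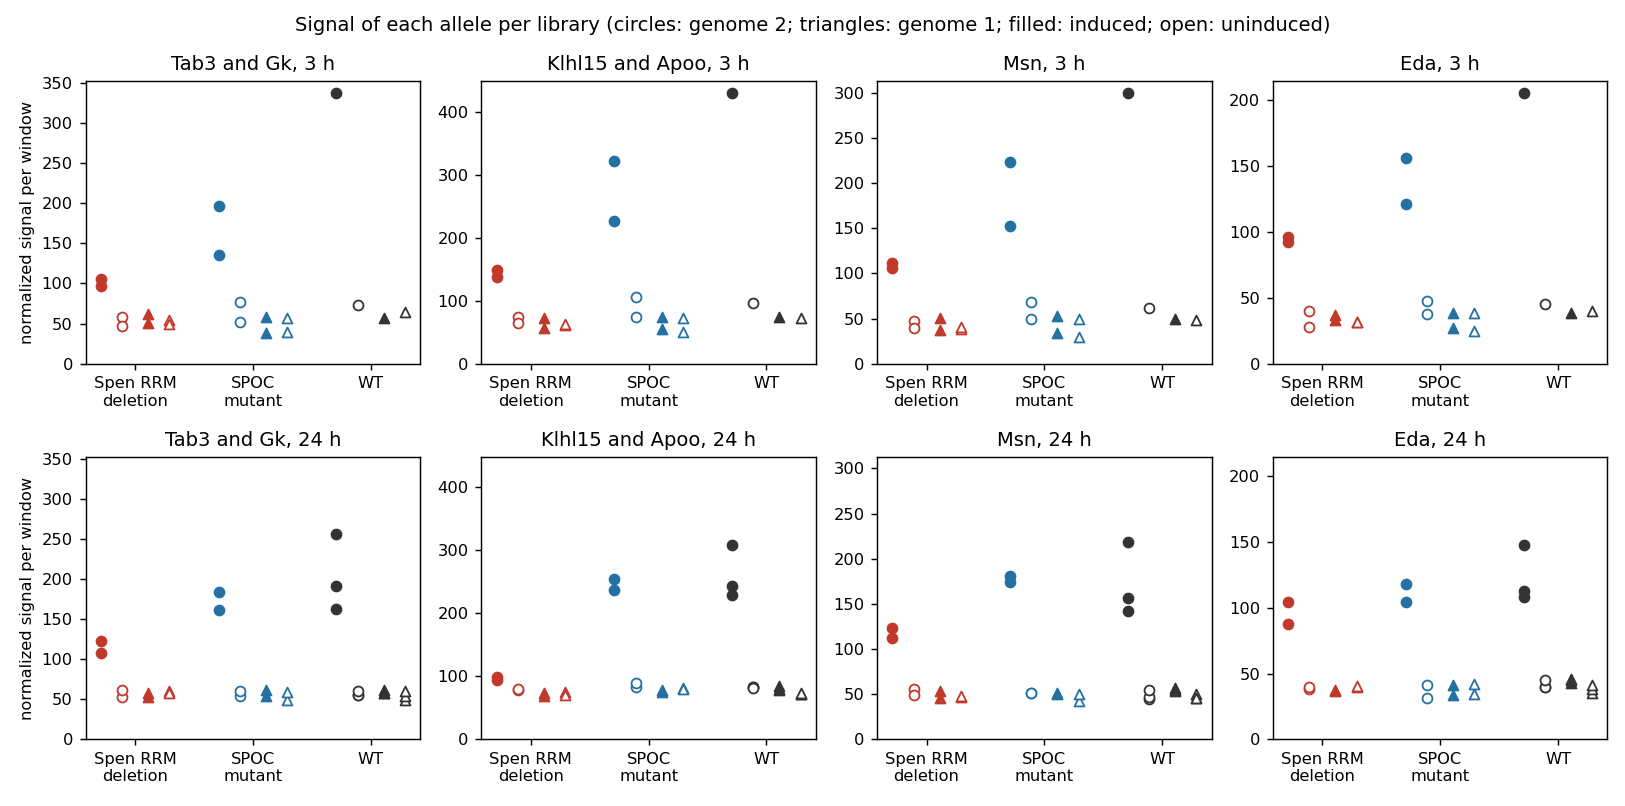
Deposited signal per 250 kb window (vertical axis, linear, from 0) on genome 2 (circles) and genome 1 (triangles) in each ChIP library, filled for induced and open for uninduced, with the 3 h series above and the 24 h series below. Genome 1 stays low in both states, and genome 2 of the WT library at 3 h reaches 429 in the Klhl15 and Apoo window. SPOC states at 24 h follow the file names.

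As a description, the 24 h changes for which the windows were chosen were as follows. In SPOC clones the mean change of the ratio was 1.48 ± 0.08 at Tab3 and Gk, 1.59 ± 0.06 at Klhl15 and Apoo, 1.64 ± 0.19 at Msn and 1.62 ± 0.14 at Eda (SD, n = 2), beside a median of 0.71 over all windows. In WT it was 1.70 ± 0.43, 1.48 ± 0.30, 1.58 ± 0.17 and 1.33 ± 0.23 for the same windows in that order (SD, n = 3), beside a median of 0.96. Among 354 windows the SPOC changes ranked 12, 5, 2 and 3 and the WT changes ranked 1, 17, 4 and 44. With the states as titled the SPOC means are -1.48, -1.59, -1.64 and -1.62. WT replicate 3 gained more than replicates 1 and 2 in each window, for example 2.16 against 1.33 and 1.62 at Tab3 and Gk, and its median window also gained more, 1.23 against 0.81 and 0.82.

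At 3 h, with libraries the choice of windows did not use, all 4 windows had gained in every genotype. In the Spen clones the ratio rose by 0.84 at Tab3 and Gk, 0.99 at Klhl15 and Apoo, 1.19 at Msn and 1.34 at Eda, a 1.79-fold to 2.53-fold rise, each ± 0.21 (SE). In the SPOC clones it rose by 1.37, 1.54, 1.51 and 1.62 for these windows in that order, again ± 0.21. In WT, with 1 library per state taken to vary like the clones, it rose by 2.38, 2.10, 2.22 and 2.23, a 4.30-fold to 5.19-fold rise, ± 0.29. The 8 values of the mutants passed limma at a Benjamini-Hochberg (BH) adjusted p of 0.05, as did 43.8% of all windows in Spen and 74.3% in SPOC. The 4 WT values passed as well, as did 79.4% of windows, but with 1 pair of libraries their error comes from the spread of the clones alone. The median window changed by 0.43 in Spen, 0.72 in SPOC and 1.10 in WT. On the level scale the SE of a genotype was the same in all 4 windows, because limma pooled the spread over windows. Shifts of whole libraries are shared by the windows, so these level calls do not measure agreement between clones window by window.

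The 4 windows also gained at 3 h relative to the median window. Centred changes in Spen were 0.41 ± 0.10 at Tab3 and Gk (adjusted p = 0.00769), 0.56 ± 0.11 at Klhl15 and Apoo, 0.76 ± 0.10 at Msn and 0.91 ± 0.10 at Eda (adjusted p = 4.83e-05). In SPOC they were 0.67, 0.83, 0.80 and 0.92, and in WT 1.28, 1.01, 1.13 and 1.13, in the same order of windows. All 4 were called higher in each genotype, where 27.1% of all windows were called higher in Spen, 30.2% in SPOC and 29.1% in WT. The largest change among the 4 was at Eda in Spen and SPOC and at Tab3 and Gk in WT. Without Spen clone C3 the centred Spen change was 0.28 at Tab3 and Gk (adjusted p = 0.308) and 0.43 at Klhl15 and Apoo (adjusted p = 0.145). Without clone C4 it was 0.55 at Tab3 and Gk (adjusted p = 0.0693). Since the WT line and SPOC clone H1 also served in the 24 h series that chose the windows, the 3 h gain is not independent of that choice.

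**Figure D3:**
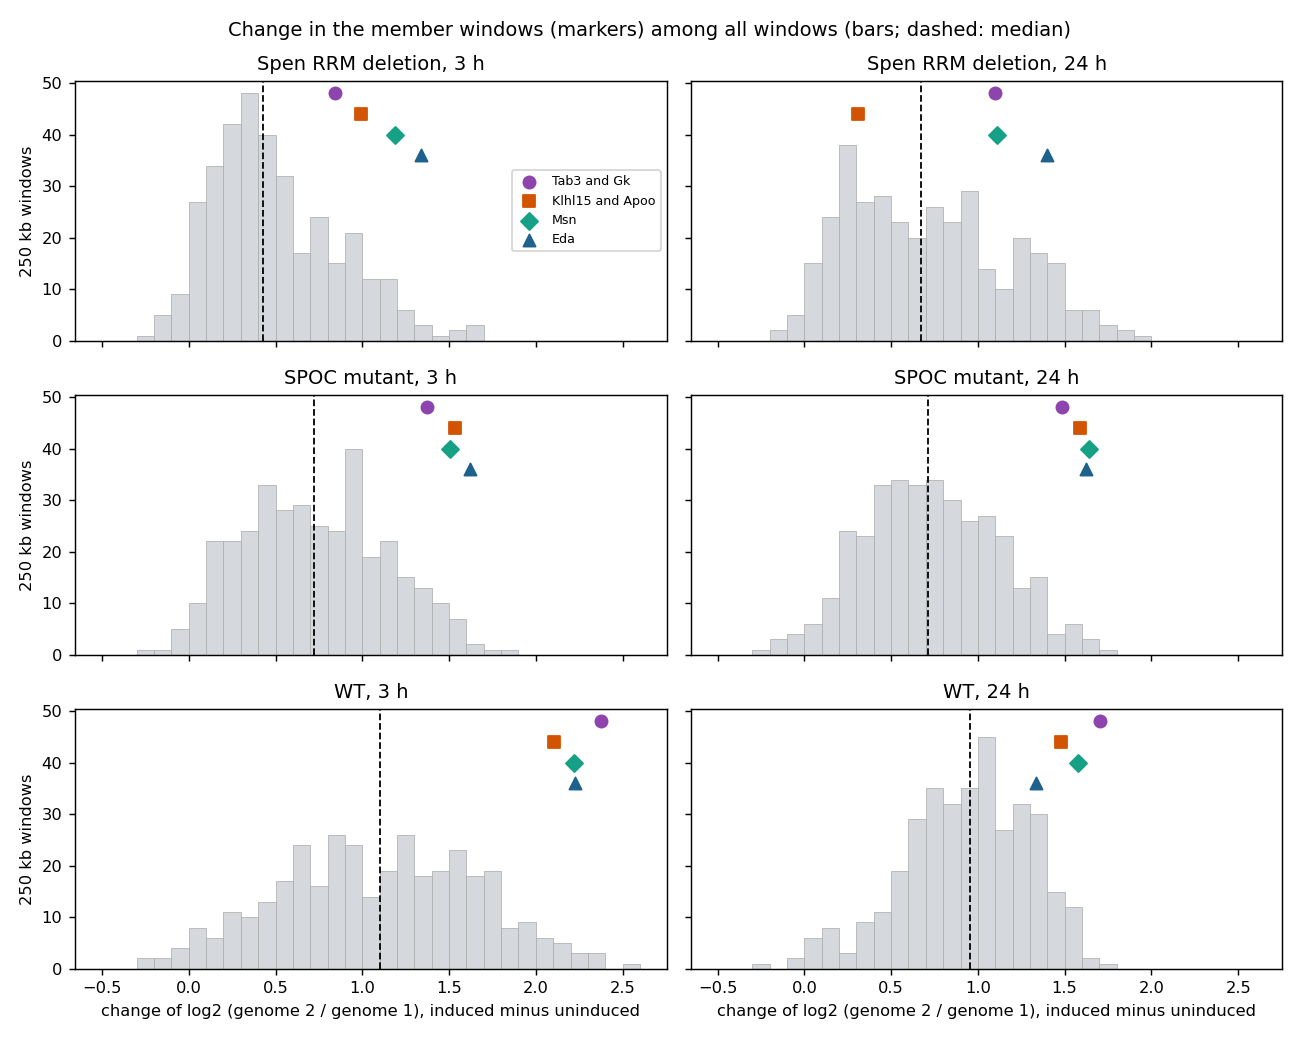
Number of 250 kb windows (vertical axis) by change of the log2 ratio, induced minus uninduced (horizontal axis), with the mean change of the 4 windows as markers at arbitrary heights and the median of all windows as a dashed line. All markers lie right of the median except that of Klhl15 and Apoo in the Spen clones at 24 h, at 0.31 beside a median of 0.67. The WT and SPOC panels at 24 h show the values that chose the windows, with SPOC states from the file names.

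At 24 h the Spen clones, which had no part in choosing the windows, gained in 3 of them. The ratio rose by 1.10 ± 0.18 at Tab3 and Gk, 1.11 ± 0.18 at Msn and 1.40 ± 0.17 at Eda (SE, limma adjusted p = 1.23e-08, 1.3e-08 and 9.8e-13), which is 2.14-fold, 2.16-fold and 2.64-fold. In limma these SE were drawn close to 1 value for all windows. The SD of the changes of the 2 clones was 0.41 at Tab3 and Gk, 0.10 at Msn and 0.16 at Eda. A shift of a whole library moves its windows together, so p-values this small overstate the evidence of 2 clones. At Klhl15 and Apoo the change was 0.31 ± 0.17 (adjusted p = 0.101), which passed without WT replicate 3, a library that enters only the estimate of the spread (adjusted p = 0.00931). Calls were made in 70.6% of all windows, and the median window changed by 0.67. Centred, Eda rose by 0.75 ± 0.09 (adjusted p = 8.02e-06), Msn by 0.46 ± 0.14 (adjusted p = 0.00834) and Tab3 and Gk by 0.45 ± 0.12 (adjusted p = 0.00416), while Klhl15 and Apoo fell by 0.34 ± 0.09 on the log2 scale (adjusted p = 0.00463). Of all windows 32.5% were called higher and 30.2% lower, so 3 higher and 1 lower of 4 stands beside a background that is split nearly evenly. Ranked by change, Eda was at 34, Msn at 79, Tab3 and Gk at 81, and Klhl15 and Apoo at 267 of 354.

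Clones C3 and D4 did not contribute evenly to the centred values. C3 gave 0.75 and D4 0.15 at Tab3 and Gk, 0.54 and 0.38 at Msn, and -0.19 and -0.50 at Klhl15 and Apoo. Without C3 the calls at Tab3 and Gk (0.15, adjusted p = 0.351) and at Msn (0.38, adjusted p = 0.0721) were lost. Without D4 the call at Klhl15 and Apoo was lost (-0.19, adjusted p = 0.199). With the ratio of a library's own input subtracted, in a fit without WT replicate 3, for which no input was used here, the values were 0.31 (adjusted p = 0.263), -0.38 (adjusted p = 0.263) and 0.56 (adjusted p = 0.0692) at Tab3 and Gk, Klhl15 and Apoo, and Msn. Leaving out WT replicate 3 alone, with no input subtracted, kept these 3 calls (adjusted p = 0.00558, 0.00746 and 0.00647). Eda stayed called in each of these settings.

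The Klhl15 and Apoo window was the 1 window of the 4 whose centred change differed between the 2 times in the Spen clones. Its centred change was 0.56 at 3 h and -0.34 at 24 h, a difference of -0.91 ± 0.14 (SE, limma adjusted p = 0.000198), in a comparison of the series chosen after the values were seen. This was 1 of 4 windows called lower, where 10.5% of all windows were, and 8 of the 16 flanking windows were called lower too. The differences at Tab3 and Gk (0.04 ± 0.16), Msn (-0.30 ± 0.19) and Eda (-0.16 ± 0.13) did not pass the test. Clone C3, the one Spen clone in both series, had a centred change of 0.69 at 3 h and of -0.19 at 24 h in the Klhl15 and Apoo window. On the level scale the difference at Klhl15 and Apoo was -0.68 ± 0.26 (adjusted p = 0.0942, or 0.0208 with clone as a replicate block and 0.0315 without WT replicate 3), where 0% of windows were called lower in limma (9 at an unadjusted p under 0.05), or 1.69% with the block. The 2 series were handled on different days, and the second Spen clone was C4 at 3 h and D4 at 24 h. Time, occasion and the change of clone cannot be told apart in this difference.

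Spen clones gained less than the 1 WT pair of libraries at 3 h, when all libraries were handled on 1 day. With 1 WT pair, the error of each difference from WT at 3 h comes from the spread of the clones alone. The difference of the changes, Spen minus WT, was -1.54 ± 0.36 at Tab3 and Gk (SE, adjusted p = 0.00298), -1.11 at Klhl15 and Apoo (adjusted p = 0.0275) and -1.03 at Msn (adjusted p = 0.0375). At Eda it was -0.89 (adjusted p = 0.0634). Thus 3 of 4 were called lower, where 13% of all windows were called lower and the median difference of all windows was -0.60. Centring takes this shared shift out, to a median of 0.06. What was left was -0.87 ± 0.18 at Tab3 and Gk (adjusted p = 0.0218), 1 of 4 where 0.847% of windows were called lower, and -0.45, -0.37 and -0.22 at Klhl15 and Apoo, Msn and Eda (adjusted p = 0.171, 0.234 and 0.473). The 4 windows were chosen for a large gain in WT and SPOC cells at 24 h, and the same WT line and SPOC clone H1 recur at 3 h. A shortfall of Spen from WT or SPOC is therefore not independent of the choice, nor is its count beside the share of all windows.

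With clone as a replicate block, which pairs the 2 libraries of each clone, all 4 level differences passed (adjusted p between 0.000103 and 0.000824), where 72.6% of all windows did. Centred, Klhl15 and Apoo then joined Tab3 and Gk (adjusted p = 0.0412), where 6.78% of windows were called lower. The uninduced Spen libraries of C3 and C4 differ in their median window, 0.24 and -0.10. Leaving out either SPOC clone, which takes no part in the difference but in the estimate of its spread, removed the 3 level calls, with adjusted p between 0.0663 and 0.162. Without Spen clone C4 the level difference at Eda passed (-1.03, adjusted p = 0.0221). Leaving out Spen clone C3 or C4 removed the centred call at Tab3 and Gk (-1.01 and -0.74, adjusted p = 0.264 and 0.352), as did keeping all windows with no filter on low values (-0.92, adjusted p = 0.083), which also removed the level calls at Klhl15 and Apoo (adjusted p = 0.0791) and at Msn (adjusted p = 0.094).

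SPOC clones minus WT at 3 h gave -1.003 ± 0.36 at Tab3 and Gk (adjusted p = 0.338), -0.57 at Klhl15 and Apoo, -0.71 at Msn and -0.61 at Eda, and none of the 4 passed limma, where 0.282% of all windows were called lower. At an unadjusted p under 0.05 there were 36 windows lower. With the replicate block all 4 passed (adjusted p = 0.00282, 0.0153, 0.00757 and 0.0153), where 43.8% of windows were called lower, and Tab3 and Gk passed also when centred (-0.61, adjusted p = 0.0105, where 2.54% were). Without Spen clone C3 or C4, Tab3 and Gk passed on the level scale (adjusted p = 0.0483).

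Spen minus SPOC at 3 h was -0.53 at Tab3 and Gk, -0.55 at Klhl15 and Apoo, -0.32 at Msn and -0.28 at Eda, each ± 0.29, with no window called of 354 in limma and 16 lower at an unadjusted p under 0.05. With the block, Tab3 and Gk (adjusted p = 0.0191) and Klhl15 and Apoo (adjusted p = 0.0187) passed, where 22.3% of windows were called lower. Centred, the differences were -0.26, -0.27, -0.04 and -0.0045, each ± 0.15, and none passed with or without the block. At Msn and Eda the centred gains of the 2 mutants at 3 h therefore differed by less than their error, though this does not show them to be equal.

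Flanking windows mostly moved with the windows they surround. Among the 16, centred calls at 3 h were higher in 14 in Spen, 14 in SPOC and 15 in WT. Of all windows 27.1%, 30.2% and 29.1% were called higher in these genotypes. The medians of the 16 were 0.52, 0.68 and 0.87, beside medians of 0.66, 0.82 and 1.13 in the 4 windows. In Spen at 24 h 9 of 16 were called higher and 3 lower, where 32.5% of all windows were called higher and 30.2% lower. Around Tab3 and Gk, the windows of Fthl17a (left) and of Samt3 and Nr0b1 (right) rose in Spen at 24 h, by 0.72 ± 0.11 and 0.68 ± 0.09 centred, more than the 0.45 of the window between them. Nr0b1 encodes DAX1, a nuclear receptor of the stem cell network and of the adrenal. The next window right of Tab3 and Gk, where Gk starts, changed by 0.45 ± 0.10.

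Around Klhl15 and Apoo, 3 of the 4 neighbours also fell relative to the median window in the Spen clones at 24 h. Of all windows 30.2% were called lower in that contrast. The window of Zfx and Eif2s3x, where Klhl15 starts, fell by 0.58 ± 0.10 on the centred log2 scale (adjusted p = 0.000183). That of Pdk3, a kinase that inhibits pyruvate dehydrogenase, fell by 0.38 ± 0.09, and that of Maged1, Gspt2 and Zxdb fell by 0.28 ± 0.10 (adjusted p = 0.0219). The fourth neighbour, a window with no gene midpoint, had -0.18 ± 0.09 (adjusted p = 0.087). Eif2s3x, a translation initiation factor subunit, is known to escape X inactivation in mouse. On the level scale the Zfx and Eif2s3x window had 0.07 ± 0.17 (adjusted p = 0.717) in Spen and that of Pdk3 had 0.27 ± 0.17 (adjusted p = 0.149), while that of Maged1, Gspt2 and Zxdb rose by 0.37 ± 0.17 (adjusted p = 0.0481) and the window with no gene midpoint by 0.47 ± 0.17 (adjusted p = 0.0095). At 3 h the Zfx and Eif2s3x window had centred changes of -0.11 ± 0.09 in Spen, -0.09 ± 0.09 in SPOC and 0.59 ± 0.13 in WT. Of these the WT change alone passed limma (adjusted p = 0.00286). The Klhl15 and Apoo window beside that one had 0.56, 0.83 and 1.01 in the same order.

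Around Msn, the windows of Vsig4 and Hsf3 (0.91 ± 0.13) and of Heph and Gpr165 (0.93 ± 0.11) to its right rose in Spen at 24 h, centred, and so did that of Asb12 and Zc4h2 to its left (0.30 ± 0.09, adjusted p = 0.00705). The window of Zc3h12b and Las1l, between that one and Msn, had 0.09 ± 0.09 (adjusted p = 0.405). Heph is hephaestin, a copper-dependent iron oxidase. Around Eda, the window of Tmem28, where Eda starts, rose by 0.28 ± 0.11 and that of Awat2 and Otud6a by 0.32 ± 0.12, both less than the 0.75 at Eda. The gene-dense window that follows, with Igbp1, Kif4 and 6 more genes, had centred changes of 0.47 ± 0.09 at 3 h (adjusted p = 0.00146) and -0.03 ± 0.10 at 24 h (adjusted p = 0.792) in Spen, and of 0.68 ± 0.09 in SPOC and 0.96 ± 0.13 in WT at 3 h.

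**Figure D4:**
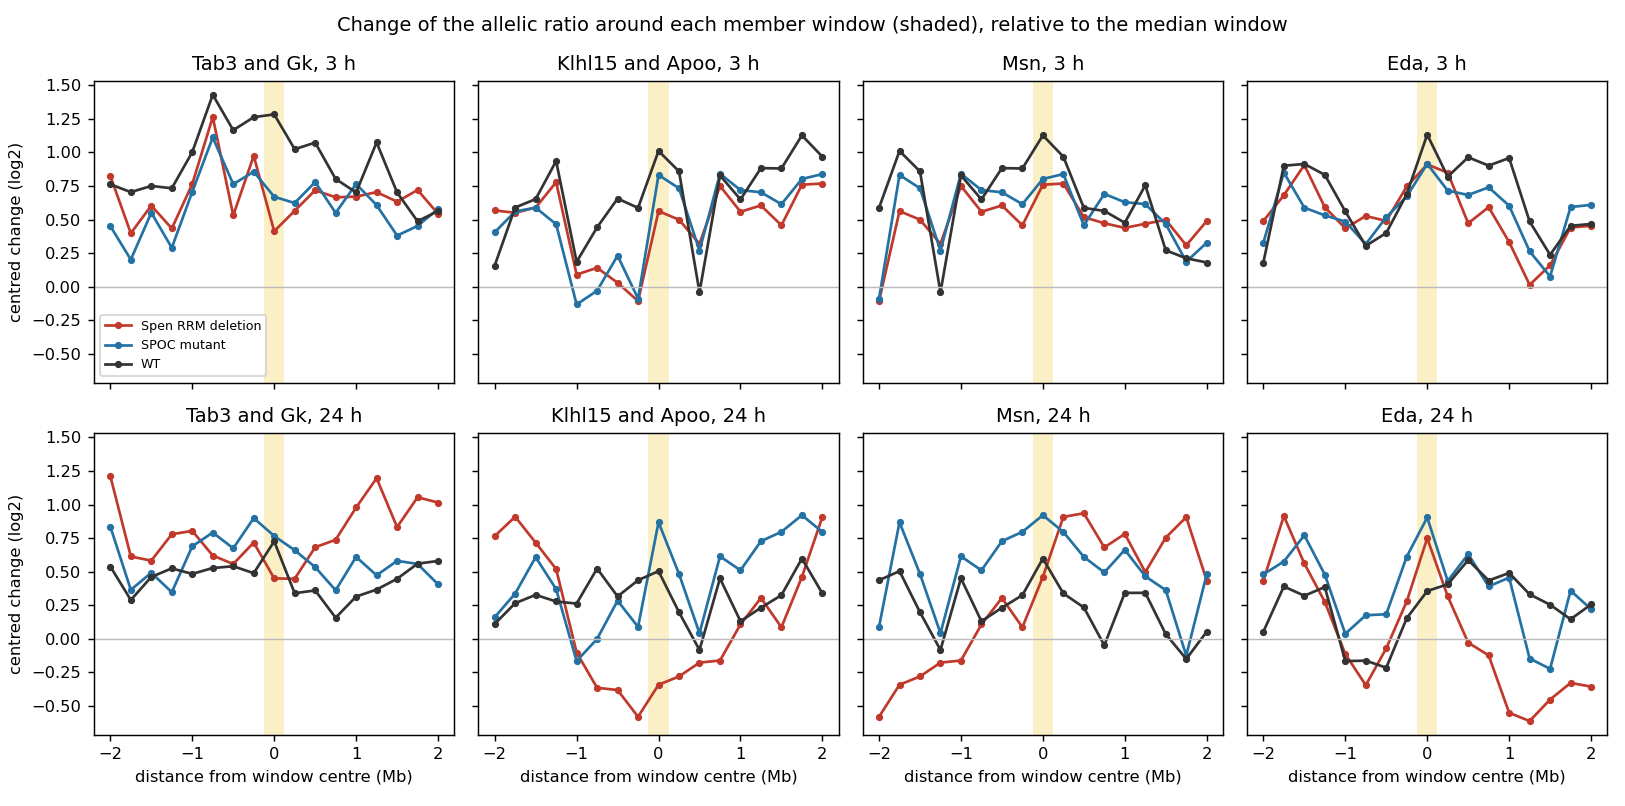
Centred change of the log2 ratio (vertical axis) against distance from the centre of each of the 4 windows (horizontal axis, Mb, shaded band for the window), 1 point per 250 kb window with usable signal, 3 h above and 24 h below. In the window left of Klhl15 and Apoo at 24 h Spen stands at -0.58, SPOC at 0.09 and WT at 0.44, and in the Klhl15 and Apoo window itself they stand at -0.34, 0.87 and 0.50. SPOC states at 24 h follow the file names.

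Other genes of the pathways of the members were read in the same way from lists of 11 NF-kB and 13 metabolic genes, of which 8 and 9 lay in usable windows. Some share a window, as Ikbkg does with G6pdx. Outside the members' own windows, 3 of 6 NF-kB windows and 3 of 7 metabolic windows were called higher, centred, in WT at 3 h, and 0 were lower, where 29.1% of all windows were called higher and 27.4% lower. In the Spen clones at 3 h these counts were 2 and 1 higher and 0 and 1 lower, where 27.1% of all windows were higher and 14.4% lower. In the SPOC clones at 3 h they were 4 and 2 higher and 1 and 2 lower, where 30.2% were higher and 25.1% lower. In the Spen clones at 24 h they were 1 and 1 higher and 4 and 5 lower, where 32.5% of all windows were higher and 30.2% lower, with medians of -0.32 and -0.38 beside 0.02 over all windows.

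Eda2r, a receptor of ectodysplasin, was the NF-kB window outside the members that was called higher, centred, in Spen at 24 h (0.50 ± 0.10, limma adjusted p = 0.000692). At 3 h its centred change was 0.47 in Spen, 0.62 in SPOC and 0.76 in WT. The windows of Ikbkg, the regulatory subunit of the IKK complex (-0.33), Irak1, a kinase of Toll-like receptor signalling (-0.43), Xiap (-0.30) and Nkap (-0.50) were called lower in Spen at 24 h, centred. They were lower relative to the median window only. On the level scale Ikbkg, Irak1 and Xiap changed by 0.32, 0.22 and 0.35, beside a median of 0.67 over all windows. There 0 windows of either list were called lower. Irak1 shares its window with Flna, the actin cross-linker filamin A, and had centred changes of 0.20 ± 0.10 in Spen, 0.62 ± 0.10 in SPOC and 0.69 ± 0.15 in WT at 3 h. Among metabolic genes Phka1, a subunit of phosphorylase kinase, rose by 1.19 in Spen, 0.95 in SPOC and 0.75 in WT at 3 h. Hprt, the purine salvage enzyme, fell by 0.38 relative to the median window in Spen at 24 h.

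Over the 24 ChIP libraries the centred ratios of the 4 windows correlated with each other at Pearson r between 0.74 (Klhl15 and Apoo with Eda) and 0.93 (Msn with Eda). These libraries share their induced and uninduced states, so the values describe the common gain. The gene-holding windows outside the 4 whose centred ratio was most like their mean were those of Zc3h12b and Las1l (r = 0.96), Asb12 and Zc4h2 (0.95), 5430427O19Rik (0.95), Fthl17a (0.94) and Yipf6 (0.94), of which 4 are flanking windows. Klhl15 and Apoo, at 0.90 with a mean it is part of, was below all 5.

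Before induction the mean allelic ratio was 0.11 at Tab3 and Gk, 0.24 at Klhl15 and Apoo, 0.22 at Msn and 0.11 at Eda, beside 0.11 for the median window. These are the percentiles 47.2, 86.2, 82.2 and 51.4 of all windows, so 2 of the 4 lay near the middle and 2 in the upper part. In the signal of all reads from uninduced libraries, Klhl15 and Apoo stood at 306, the percentile 87.0 of all windows, and Eda at 183, the percentile 44.4. Input ratios averaged 0.05, 0.08, 0.02 and -0.01 in the order used above. They ran from -0.54 to 0.50 at Klhl15 and Apoo, a wider spread than from -0.23 to 0.24 at Eda, -0.21 to 0.20 at Msn and -0.09 to 0.18 at Tab3 and Gk.

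Genes covered 43.5% of the Tab3 and Gk window, 41.9% of the Klhl15 and Apoo window, 30.1% of the Msn window and 100% of the Eda window, against a median of 8.11% over all windows. The windows lie 17.85, 9.1, 7.35 and 3.35 Mb from Xist. The 3 h changes did not follow this distance in 1 way across genotypes. WT changed most at the farthest window (2.38 at Tab3 and Gk) and Spen most at the nearest (1.34 at Eda), with 4 windows being too few for a test.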

How the data were processed

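H2AK119ub1 ChIP and input libraries of the study were analysed from 108 deposited files. The submitters' processing notes name Bowtie2 2.2.6, Picard, bedtools and mm10 without saying what each was used for. The files hold a normalized signal per 250 kb window, deposited for all reads and for the reads of each of 2 genomes. The scaling factor and the strain behind each genome number are not given in the sources used here. Allelic files stop at Xist, with 414 windows.

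The log2 ratio of genome 2 over genome 1 was taken per window, with 1% of each file's median window added to both alleles. A window was used if, averaged over libraries, each of its alleles reached 10% of the median window, which left 354. Changes and differences of changes were tested with limma 3.58.1 in R 4.3.3, in 1 fit per series of all groups, two-sided, with BH adjustment at 0.05 over 354 windows. The level fit was run on simulated data with a change of 1 on the log2 scale in 100 windows. It recovered 50% of these for Spen minus WT at 3 h, 54% for SPOC minus WT and 85% to 100% in the other comparisons simulated. The simulated noise had no shift shared by the windows of a library, so it does not measure errors under such shifts. Tables and plots were made with Python 3.11.15, numpy 2.4.6, pandas 2.3.3 and matplotlib 3.10.9. Depth is unknown, so no counting error is given.

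The windows and the gene lists were chosen with earlier results of these data known. Named are the 6 genes, the genes of the 2 windows on each side, the genes of 2 lists and the 5 windows most like the mean of the 4. Genes were placed by RefSeq coordinates of GRCm38, and all 6 matched the promoter table. A further gene list is not reported here.

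Replicate numbers pair libraries, because both libraries of a clone come from 1 cell line and those of a WT number from 1 occasion. Within a pair, correlations across windows of the deviations from group means were -0.0022, -0.096 and 0.024 for WT, 0.0015 for Spen and 0.10 for SPOC at 24 h, and 0.15 for Spen and 0.30 for SPOC at 3 h. Fits with the block are given where they change a call or a count.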

Additional observations from a re-analysis of the deposited data

Results flagged for a closer look

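The change at 3 h differed between the Spen clones and the 1 WT pair by a test of the difference itself in 3 windows on the level scale. Of all windows 13% were called lower. Spen minus WT was -1.535 at Tab3 and Gk, -1.113 at Klhl15 and Apoo and -1.032 at Msn. After centring the difference at Tab3 and Gk was -0.871, where 0.847% of all windows were called lower. The windows were chosen for a large gain in WT and SPOC cells at 24 h, so these differences from WT are not independent of the choice. As given above, the level calls were lost without either SPOC clone and the centred call without either Spen clone. In the Spen clones the centred change at Klhl15 and Apoo differed between 24 h and 3 h by -0.906, where 10.5% of all windows were called lower. Time, occasion and the change of the second clone cannot be told apart in that difference. The median window of the Spen clones also gained less than that of WT at 3 h, 0.43 beside 1.10.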

How the results depend on the processing

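The limits are those of the replicates: 1 WT library per state at 3 h, 2 clones per mutant, and occasions that coincide with genotype at 24 h. Depth is unknown, and 250 kb windows do not resolve single promoters. The alternatives were pseudocounts of 0.1% and 10%, no filter or a filter of 50%, the replicate block, subtracted inputs, SPOC states as titled, and leaving out each pair. Of the values given for single windows under them, 660 kept their direction and, where tested, their side of the threshold, 20 lost and 15 gained a call, 16 changed sign and 1 without a test moved.

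Windows called per comparison, both directions together, changed by more than 1.5 times as follows. With the 10% pseudocount there were 15 for Spen minus WT at 3 h centred, against 9, 0 for SPOC minus WT level, against 1, and 1 for Spen 24 h minus 3 h level, against 15. With no filter there were 15 for Spen minus WT level, against 46, 0 for it centred, 1 for Spen minus SPOC level, against 0, and 1 for Spen 24 h minus 3 h level. With the 50% filter there were 22 for Spen minus WT centred, 0 for SPOC minus WT level and 9 for Spen 24 h minus 3 h level, and the centred Spen minus SPOC difference was 0.005 at Msn and 0.044 at Eda, against -0.043 and -0.004. With the replicate block there were 271 for the Spen 3 h level change, against 155, and 259 and 79 for Spen minus WT level and centred. With it there were also 156 and 28 for SPOC minus WT, 79 and 8 for Spen minus SPOC, and 57 for Spen 24 h minus 3 h level. Beyond the calls given with the results, the replicate block changed no other call in the 4 windows. Subtracted inputs, in a fit that also lacks WT replicate 3, left 92 for the centred Spen 24 h change, against 222, and 215 without that replicate alone. The median 24 h SPOC change of the 4 windows, 1.555, was 1.521 with the 10% pseudocount and -1.555 as titled, with -1.484, -1.586, -1.639 and -1.621 in the single windows. The cause of these shifts was not tested, other than the changed signs of the 24 h SPOC values, which the titles bring about.

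Leaving out each replicate pair in turn gave 35 to 175 windows for the centred Spen 3 h change (147 with all pairs), 140 to 291 for the SPOC 3 h level change (263) and 1 to 123 and 0 to 35 for Spen minus WT level and centred (46 and 9). It gave 0 to 4 and 0 to 3 for SPOC minus WT (1 and 0), 0 to 1 for Spen minus SPOC centred (0), and 1 to 42 and 17 to 81 for Spen 24 h minus 3 h level and centred (15 and 67). Differences near 0 crossed it: -0.033 to 0.548 at Tab3 and Gk, -0.177 to 0.02 at Msn and -0.087 to 0.205 at Eda for Spen 24 h minus 3 h level, -0.261 to 0.333 at Tab3 and Gk for it centred, and -0.169 to 0.083 at Msn and -0.138 to 0.129 at Eda for Spen minus SPOC centred. None of these 6 passed the test in any setting.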
